A study of Mus musculus with 9 samples.

Results

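The enzymes that burn fatty acids in mitochondria and handle ketone bodies were followed through fat cell differentiation and through the loss of PPAR gamma in 3T3-L1 cells, an established mouse embryonic fibroblast line that forms fat cells in culture. The set was a list of 30 genes, taken by gene symbol from the array's probe annotation, and each gene was read from its single-symbol probe set of highest mean over all arrays. A probe set is a group of short oligonucleotides that report 1 transcript. Of the 30 genes, 29 had such a probe set, out of 18193 genes measured in this way. Cpt1b, the muscle form of carnitine palmitoyltransferase, lay only on a probe set listed with 3 genes and was not analysed here. Total RNA was measured on 9 arrays, 1 sample each, in 3 groups of 3. Preadipocytes were undifferentiated cells and received neither electroporation nor siRNA, per the labels. Control siRNA adipocytes had been induced for 2 days with insulin (10 µg/ml), dexamethasone (1 µM) and the phosphodiesterase inhibitor IBMX (0.5 mM), followed by 2 days of insulin alone. The labels put maturity at day 8 and conversion to adipocytes at 95%. On day 14 these cells were detached with trypsin and collagenase and electroporated with 2 or 3 nmol of a non-targeting oligonucleotide. PPAR gamma siRNA adipocytes were treated alike but received siRNA to PPAR gamma, a nuclear receptor required for fat cell formation. All cells grew in medium with 10% fetal bovine serum. Since the submitters call the replicates technical, a p-value here reflects no more than the variation among these samples, which may be technical. Every comparison with preadipocytes carries the effects of electroporation and replating along with those of differentiation, which cannot be told apart.

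Long-chain fatty acids enter mitochondria bound to carnitine. An outer-membrane transferase (Cpt1) makes the acyl-carnitine, a carrier in the inner membrane exchanges it, and Cpt2 turns it back into acyl-CoA. In the matrix, repeated rounds of dehydrogenation, hydration, a further dehydrogenation and thiolysis shorten the chain to acetyl-CoA, while electron transfer flavoprotein (ETF) passes the electrons of the acyl-CoA dehydrogenases to the respiratory chain. White fat cells mainly store fatty acids, but their mitochondria also oxidise them, and many enzymes of the pathway are known targets of the PPAR family, which binds DNA as a dimer with RXR at a direct repeat of the hexamer AGGTCA with a spacer of 1 base.

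Sequences before the start sites of 6 members are shown as examples of the main patterns. Acadvl and Echs1 rose and then fell, as most members did, and Cpt1a fell with no call under PPAR gamma siRNA. Bbox1 rose with the siRNA, Oxct1 fell and then rose, and Hadha and Hadhb are a pair of subunit genes that lie head to head. The sequences were taken from RefSeq on GRCm38.p6 and are written 5′ to 3′ on the gene's own strand. The first 5 are the 120 bases before the start site, with AGGTCA or its reverse complement TGACCT in capitals. The last is the 250 bases before the Hadhb start, with GGGCGG, the core of a GC box, in capitals.
Acadvl (chr11:70015429-70015548, minus strand): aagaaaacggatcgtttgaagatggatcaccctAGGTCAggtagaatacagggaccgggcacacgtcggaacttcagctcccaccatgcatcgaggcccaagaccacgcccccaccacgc
Echs1 (chr7:140116422-140116541, minus strand): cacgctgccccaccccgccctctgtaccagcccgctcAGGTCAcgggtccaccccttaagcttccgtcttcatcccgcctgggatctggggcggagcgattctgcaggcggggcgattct
Cpt1a (chr19:3323181-3323300, plus strand): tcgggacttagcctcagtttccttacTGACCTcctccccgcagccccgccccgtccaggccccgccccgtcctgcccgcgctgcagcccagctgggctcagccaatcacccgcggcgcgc
Bbox1 (chr2:110305726-110305845, minus strand): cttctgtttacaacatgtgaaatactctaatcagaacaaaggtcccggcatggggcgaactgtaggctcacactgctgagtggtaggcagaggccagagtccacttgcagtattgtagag
Oxct1 (chr15:4026308-4026427, plus strand): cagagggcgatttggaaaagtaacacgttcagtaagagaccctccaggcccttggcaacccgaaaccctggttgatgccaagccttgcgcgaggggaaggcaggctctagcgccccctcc
Hadhb (chr5:30155003-30155252, plus strand): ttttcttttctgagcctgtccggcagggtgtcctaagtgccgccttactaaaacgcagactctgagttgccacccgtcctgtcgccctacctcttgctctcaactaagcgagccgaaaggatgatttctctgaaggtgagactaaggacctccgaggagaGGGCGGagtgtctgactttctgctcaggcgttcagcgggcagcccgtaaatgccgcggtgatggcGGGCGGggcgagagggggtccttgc

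Counted from the start site, AGGTCA begins at position -87 in Acadvl and -83 in Echs1, and the reverse complement begins at -94 in Cpt1a, whereas the stretches of Bbox1 and Oxct1 hold neither. Over windows of 300 bases (250 before and 50 after a start), searched on both strands, 4 of 24 windows of 23 members held the hexamer, 16.7% against 16.3% of 32851 windows of all genes. The complete direct repeat, AGGTCA followed by any 1 base and AGGTCA again, was in 0 member windows and in 0.0396% of all windows. With up to 2 mismatches it was found in 2 member windows, those of Echs1 and Etfa, which is 8.33% against 3.86% of all. GGGCGG was in 15 member windows, 62.5% against 35.7%, and CCAAT in 9, 37.5% against 37.4%. The hexamer is part of the repeat, so these counts overlap. The windows of Hadha and Hadhb overlap too, and the GC box at -188 of Hadha is the one at -90 of Hadhb. These matches describe the letters in the windows and say nothing about binding. Hadha and Hadhb start 272 bases apart on opposite strands of chromosome 5, so the printed stretch lies before both genes.

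Pparg, the siRNA's target, read 8.35, 8.20 and 8.12 in preadipocytes, 12.89, 12.82 and 12.65 in control siRNA adipocytes and 9.54, 9.58 and 9.64 in PPAR gamma siRNA adipocytes. All values here are log2 signals of a probe set, so a difference of 1 is a 2-fold change, and levels of different genes cannot be compared on this scale. The 3 groups did not overlap, and the siRNA lowered Pparg by 9.20-fold (log2 change -3.20 ± 0.09, adjusted p = 1.27e-09). Changes are given as log2 differences between groups ± SE, from limma with Benjamini-Hochberg adjustment over 45037 probe sets, with 0.05 as the limit on the adjusted p for a call. The cells carried the fat cell genes Adipoq and Fabp4 after differentiation. Their list of 5 measured adipocyte markers had 4 members up on differentiation, with Lep, the leptin gene, at 3.69 ± 0.12 against 3.55 ± 0.20. All 7 preadipocyte and fibroblast markers rose with PPAR gamma siRNA against control siRNA, and the log2 of their summed signal was 15.77 to 15.89 in preadipocytes, 13.51 to 13.79 in control siRNA adipocytes and 15.07 to 15.39 in PPAR gamma siRNA adipocytes. The part of such cells in the results below was not tested, and in RNA from whole cultures a smaller share of fat cells and less RNA per fat cell cannot be told apart. Brown fat markers had 4 of 7 up on differentiation and 3 down with PPAR gamma siRNA, endothelium markers 1 of 6 up and 0 changed, and skeletal muscle markers 2 of 6 up and 2 down and then 1 up. Of all genes, 27.1% were called higher and 24.7% lower on differentiation, and 19.9% and 16.1% with PPAR gamma siRNA. Ucp1, Dio2, Zic1 and all endothelium and muscle markers but Kdr and Ckm lay below the array medians on every array. Calls at that level are not read as changes of cell type. Of 7 macrophage markers, 2 rose with PPAR gamma siRNA (Cd68 and Cd14), while Ptprc, Itgam and Mrc1 lay below the array medians of 4.82 to 4.89 on every array. The log2 of the macrophage markers' summed signal was 7.72 to 7.78, 8.01 to 8.04 and 8.96 to 9.27 in the 3 groups. The Actb signal of the 3′ probe set minus that of the 5′ one, a measure of RNA integrity, was 0.23 to 0.36 in preadipocytes, 0.91 to 1.30 in control siRNA adipocytes and 0.54 to 1.25 in PPAR gamma siRNA adipocytes. The same difference for Gapdh overlapped between these groups, at -0.19 to -0.02, -0.12 to 0.11 and -0.06 to 0.06. The hybridisation control BioB-5 was 7.08 to 7.60, 8.44 to 8.73 and 7.95 to 8.49 in the same order. The Actb difference and BioB-5 were lower on all preadipocyte arrays than on all adipocyte arrays, where array handling and cell state cannot be told apart. A covariate therefore cannot fully part the Actb difference from the groups. With it as a covariate the counts of members higher on differentiation and lower with the siRNA were unchanged at 25 and 24. The count of members above preadipocytes with PPAR gamma siRNA went from 22 to 16. The part of BioB-5 was not tested.

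Most of the oxidation genes rose on differentiation and fell with PPAR gamma siRNA. Of the 29 measured members, 25 rose on differentiation (control siRNA adipocytes over preadipocytes), where 27.1% of all genes were called higher, and 2 were lower, Cpt1a and Oxct1, against 24.7% of all genes. The median change was 1.94 over the members and 0.09 over all genes. By at least 2-fold, 21 members rose (8.83% of all genes). With PPAR gamma siRNA against control siRNA, 24 members were lower, where 16.1% of all genes were, and 2 were higher, Bbox1 and Oxct1, against 19.9% of all genes. The median change was -1.25 over the members and -0.01 over all genes, and 17 members fell by at least 2-fold (4.61% of all genes). Against preadipocytes, PPAR gamma siRNA adipocytes still had 22 members higher (19.6% of all genes) and 1 lower (16.9%), with a median of 0.59 against 0.07 over all genes. By at least 2-fold, 7 members were higher, where 4.29% of all genes were. The 3 comparisons share their arrays in pairs, so their values are set side by side and are not independent. Sorted by the 3 calls on the probe sets shown, 20 members rose in differentiation, fell with the siRNA and stayed above preadipocytes. Another 4 rose, fell and did not differ detectably from preadipocytes (Eci2, Acot2, Acot13 and Acat1). The other 5 each had a pattern of their own: Acad10, Oxct1, Cpt1a, Bbox1 and Bdh1.

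**Figure D1:**
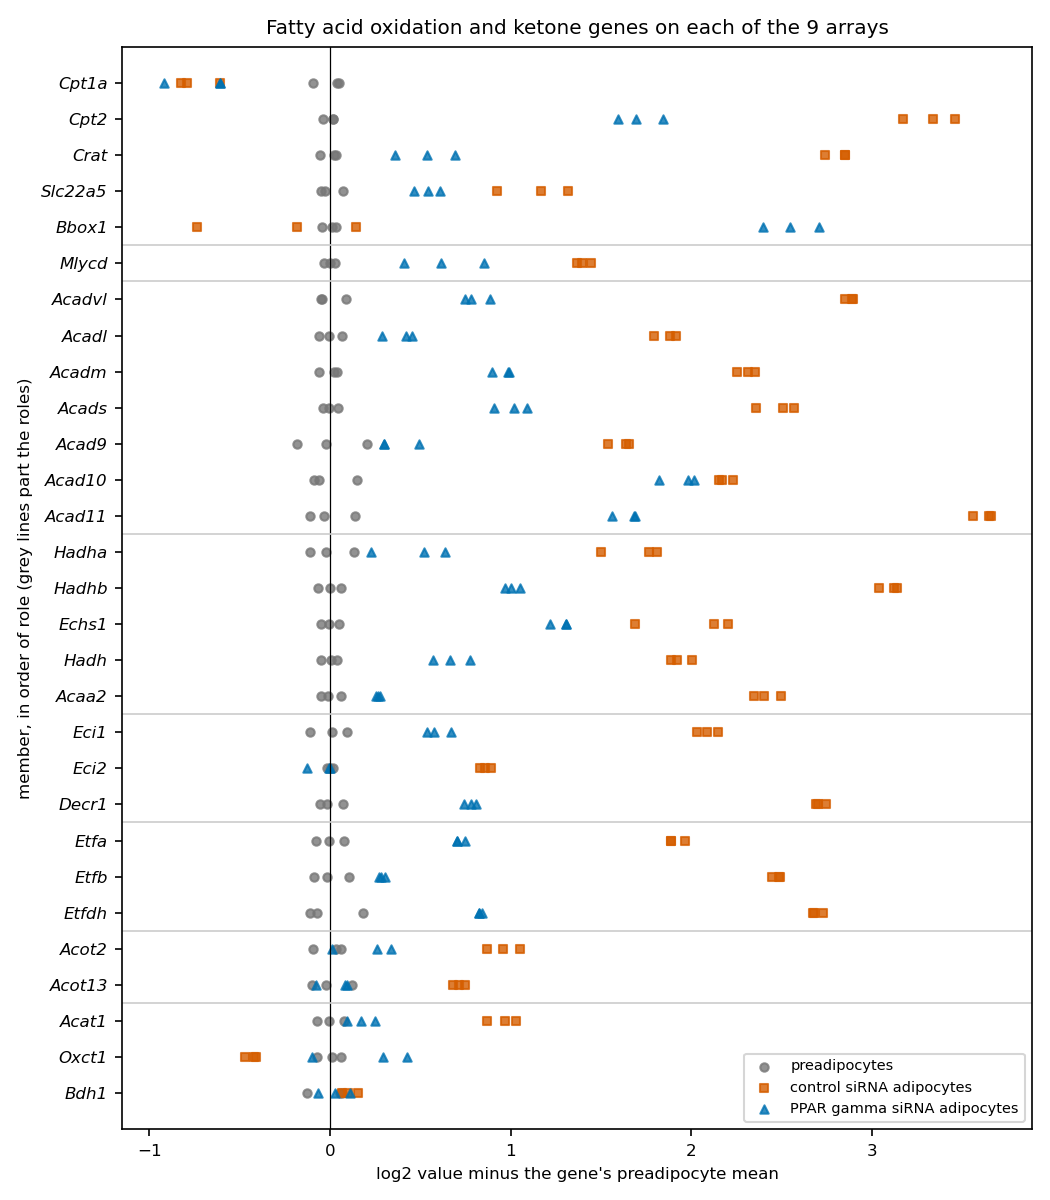
Each row is a member and each mark an array (grey circles preadipocytes, orange squares control siRNA adipocytes, blue triangles PPAR gamma siRNA adipocytes), placed by its log2 value minus the gene's preadipocyte mean. In most rows the blue marks lie between grey and orange, while Bbox1 has its blue marks alone on the right and Cpt1a has both adipocyte groups on the left.

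The carnitine shuttle did not move as a unit. Cpt1a, the liver-type outer-membrane transferase that is usually held to be the control point of the pathway, read 9.43, 9.58 and 9.56 in preadipocytes, 8.74, 8.70 and 8.92 in control siRNA adipocytes and 8.61, 8.92 and 8.92 in PPAR gamma siRNA adipocytes. The preadipocytes stood above both adipocyte groups, which overlapped. Cpt1a was lower by 1.67-fold on differentiation (log2 change -0.74 ± 0.11, adjusted p = 0.000117), and its siRNA difference of 0.03 ± 0.11 did not pass the test (adjusted p = 0.899). The other 2 probe sets of Cpt1a gave -0.68 and -0.78 on differentiation and -0.06 and 0.02 with the siRNA.

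Cpt2, the inner-membrane partner that releases acyl-CoA in the matrix, read 8.78, 8.83 and 8.83 in preadipocytes, 12.27, 12.15 and 11.98 in control siRNA adipocytes and 10.41, 10.66 and 10.51 in PPAR gamma siRNA adipocytes. The groups were well apart, with the siRNA arrays in the middle. Cpt2 rose 9.99-fold on differentiation (3.32 ± 0.10, adjusted p = 1.86e-10), fell with the siRNA (-1.61 ± 0.10, adjusted p = 2.19e-07) and stayed 3.27-fold above preadipocytes (1.71 ± 0.10). Thus Cpt1a and Cpt2 moved in opposite directions on differentiation.

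Crat, which moves acetyl groups between CoA and carnitine, read 8.48, 8.49 and 8.40 in preadipocytes, 11.31, 11.31 and 11.20 with control siRNA and 8.82, 9.15 and 9.0 with PPAR gamma siRNA. Its siRNA arrays lay close to preadipocytes. Crat rose by 2.81 ± 0.10 and changed by -2.28 ± 0.10 with the siRNA (adjusted p = 1.45e-08). Its other 2 probe sets changed by -1.21 and -0.99 with the siRNA, both called, and the average of all 3 by -1.50. Slc22a5, the plasma membrane carnitine transporter, rose by 1.14 ± 0.11 and fell by 0.60 (adjusted p = 0.000964 for the fall), from group means of 8.22 ± 0.06 in preadipocytes, 9.36 ± 0.20 with control siRNA and 8.76 ± 0.07 with PPAR gamma siRNA (SD, n = 3).

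Bbox1 encodes the last enzyme of carnitine synthesis, gamma-butyrobetaine hydroxylase. It read 5.48, 5.51 and 5.43 in preadipocytes, 5.62, 5.29 and 4.74 in control siRNA adipocytes and 7.87, 8.18 and 8.02 in PPAR gamma siRNA adipocytes. The first 2 groups overlapped, and all 3 siRNA arrays were above every other array. Control siRNA replicate 3 lay below its array's median of 4.85, so the size of the rise over control siRNA is uncertain. Bbox1 rose 7.0-fold with PPAR gamma siRNA over control siRNA (2.81 ± 0.18, adjusted p = 3.01e-07) and stood 5.85-fold above preadipocytes (2.55 ± 0.18, adjusted p = 7.55e-07), while its differentiation change of -0.26 ± 0.18 did not pass the test (adjusted p = 0.269). Without control siRNA replicate 1 that change was -0.46 and passed (adjusted p = 0.0336), and without replicate 3 it was -0.02 (adjusted p = 0.919). A dimmer second probe set gave 1.04 with the siRNA (adjusted p = 1.24e-05) and -0.21 on differentiation (adjusted p = 0.124).

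**Figure D2:**
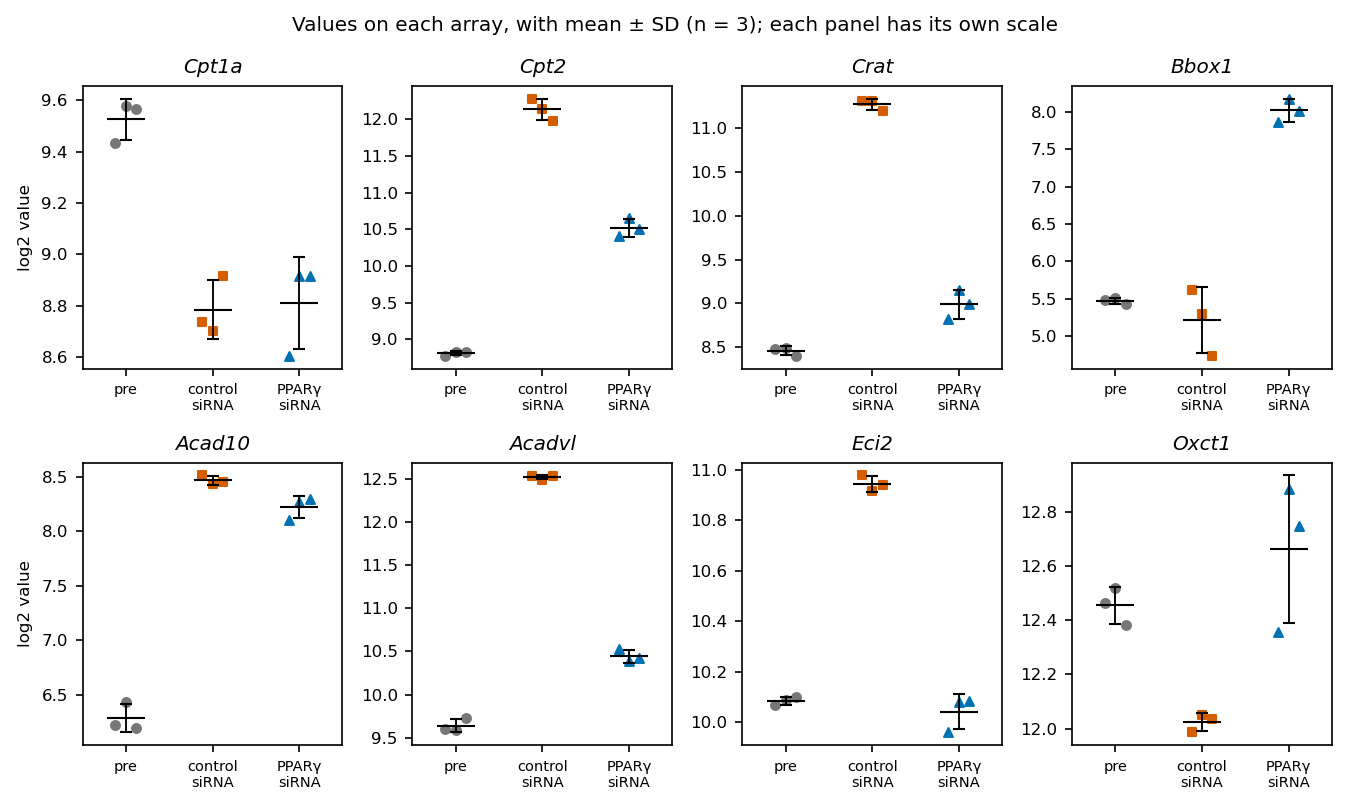
Log2 values of 8 members on each of the 9 arrays, with bars at mean ± SD (n = 3) and a scale of its own in each panel. Cpt1a is high in preadipocytes alone, Bbox1 is high with PPAR gamma siRNA alone, Oxct1 is lowest with control siRNA, and Acad10 stays near its control siRNA level after PPAR gamma siRNA.

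Mlycd removes malonyl-CoA, the inhibitor of Cpt1. It read 6.35, 6.41 and 6.39 in preadipocytes, 7.78, 7.83 and 7.75 with control siRNA and 6.79, 7.0 and 7.24 with PPAR gamma siRNA. The groups did not overlap, and the siRNA arrays were the most spread. Mlycd rose by 1.40 ± 0.11 (adjusted p = 4.83e-07) and fell by 0.78 (adjusted p = 0.00015).

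All 7 acyl-CoA dehydrogenases, the flavoenzymes that open each round, rose on differentiation, by 1.61 to 3.62. Acadvl, the enzyme for very long chains, read 9.60, 9.59 and 9.73 in preadipocytes, 12.53, 12.49 and 12.53 with control siRNA and 10.53, 10.39 and 10.42 with PPAR gamma siRNA. Control siRNA arrays differed from one another by far less than from the others. Acadvl rose 7.35-fold (2.88 ± 0.08, adjusted p = 1.31e-10) and fell 4.21-fold with the siRNA (-2.07 ± 0.08, adjusted p = 8.77e-09). The enzymes for long, medium and short chains followed the same course: Acadl rose by 1.86 ± 0.08, Acadm by 2.31 ± 0.08 and Acads by 2.48 ± 0.09, and their changes with the siRNA were -1.47 ± 0.08, -1.35 ± 0.08 and -1.47 ± 0.09 (adjusted p at most 1.99e-07). Acadm averaged 10.49 ± 0.05 in preadipocytes, 12.80 ± 0.05 with control siRNA and 11.45 ± 0.05 with PPAR gamma siRNA (SD, n = 3). Medium-chain dehydrogenase thus ended between the other groups, as the long- and short-chain enzymes did.

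The later-found members of the dehydrogenase family split. Acad11, which acts on very long saturated chains, read 7.48, 7.73 and 7.56 in preadipocytes, 11.23, 11.14 and 11.24 with control siRNA and 9.28, 9.27 and 9.15 with PPAR gamma siRNA. Its rise of 12.3-fold (3.62 ± 0.09, adjusted p = 5.07e-11) was the largest of the 29 members by the probe sets shown, and it fell by 1.98 (adjusted p = 2.54e-08). Acad10, a relative that carries further enzyme domains, read 6.23, 6.43 and 6.20, then 8.51, 8.44 and 8.45, then 8.10, 8.27 and 8.30 in the same order. The arrays of the 3 groups did not overlap, but the siRNA arrays stayed near those with control siRNA. Acad10 rose by 2.18 ± 0.09 (adjusted p = 3.39e-09), and its siRNA change of -0.25 ± 0.09 did not pass the test (adjusted p = 0.0774), leaving it 3.83-fold above preadipocytes. That siRNA change passed with the values quantile-normalised again (adjusted p = 0.0324) and with dim probe sets left out (adjusted p = 0.0458). A second Acad10 probe set, of a type that can match other transcripts, gave 0.12 on differentiation (adjusted p = 0.514), unlike the one described. The probe sets shown for Hadh and Acaa2 are also of such types. With these types left out, 25 members still rose on differentiation and 24 fell with the siRNA. Acad9 averaged 8.10 ± 0.19 in preadipocytes, 9.72 ± 0.06 with control siRNA and 8.47 ± 0.11 with PPAR gamma siRNA (SD, n = 3). This enzyme, which also helps to assemble respiratory complex I, rose by 1.61 ± 0.11 and fell by 1.25 (adjusted p = 3.41e-06 for the fall).

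The later steps of each round rose and fell together. Hadha and Hadhb encode the alpha and beta subunits of the trifunctional protein, which carries out the hydration, dehydrogenation and thiolysis of long chains. Hadha read 10.16, 10.00 and 9.92 in preadipocytes, 11.79, 11.84 and 11.53 with control siRNA and 10.26, 10.66 and 10.55 with PPAR gamma siRNA. Hadhb read 9.84, 9.71 and 9.78, then 12.81, 12.89 and 12.91, then 10.78, 10.83 and 10.75. Neither gene's groups overlapped, and Hadhb moved further. Hadhb rose by 3.10 ± 0.08 and fell by 2.09, whereas Hadha rose by 1.69 ± 0.12 and fell by 1.23 (adjusted p at most 1.26e-05 in these 4 comparisons). Although these genes share the stretch between their starts printed above, the Hadhb minus Hadha difference went from -0.32, -0.29 and -0.14 in preadipocytes to 1.02, 1.06 and 1.38 with control siRNA and 0.52, 0.16 and 0.20 with PPAR gamma siRNA. That difference between the subunits was not tested, and a probe set's response to RNA amount is its own. With the mean of all 3 Hadhb probe sets its rise was 1.88 and its siRNA change -1.33. That mean includes a probe set with group means of 4.29 to 4.69, below the array medians. The remaining one, of a type that can match other transcripts, gave 2.13 and -1.76.

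Echs1, the hydratase for short chains, read 9.72, 9.67 and 9.62 in preadipocytes, 11.36, 11.79 and 11.87 with control siRNA and 10.98, 10.98 and 10.88 with PPAR gamma siRNA. Replicate 1 was the lowest of the control siRNA arrays but still above all siRNA arrays. Echs1 rose by 2.00 ± 0.12 and fell by 0.73 (adjusted p = 0.000683), so it kept 2.42-fold above preadipocytes. Hadh, the hydroxyacyl-CoA dehydrogenase for short and medium chains, rose by 1.94 ± 0.08 and fell by 1.27 (adjusted p = 4.52e-07). Hadh averaged 11.67 ± 0.04 in preadipocytes, 13.60 ± 0.06 with control siRNA and 12.34 ± 0.10 with PPAR gamma siRNA (SD, n = 3). Acaa2, the thiolase that ends a round for medium chains, read 9.58, 9.47 and 9.51, then 12.01, 11.92 and 11.86, then 9.80, 9.77 and 9.79, in the order preadipocytes, control siRNA and PPAR gamma siRNA. After a rise of 2.41 ± 0.08 it fell by 2.15 (adjusted p = 5.34e-09). Its small distance from preadipocytes depended on the probe set: the other 2 gave 0.11 (adjusted p = 0.467) and -0.14 (adjusted p = 0.519), and the average of all 3 gave 0.08 (adjusted p = 0.527).

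The 3 members that act on unsaturated chains, a reductase and a pair of isomerases, rose and fell. Decr1, the dienoyl-CoA reductase, read 9.86, 9.90 and 9.99 in preadipocytes, 12.61, 12.66 and 12.60 with control siRNA and 10.70, 10.65 and 10.72 with PPAR gamma siRNA, a rise of 6.54-fold (2.71 ± 0.08, adjusted p = 1.37e-10) and a fall of 3.82-fold (-1.93 ± 0.08, adjusted p = 9.84e-09). Eci1 averaged 9.63 ± 0.10 in preadipocytes, 11.72 ± 0.06 with control siRNA and 10.22 ± 0.07 with PPAR gamma siRNA (SD, n = 3). This isomerase rose by 2.09 ± 0.09 and fell by 1.49 (adjusted p = 1.45e-07). Eci2, an isomerase found in mitochondria and peroxisomes, read 10.07, 10.09 and 10.10, then 10.98, 10.92 and 10.94, then 9.96, 10.08 and 10.09. It rose by 0.86 ± 0.08 and fell by 0.90 (adjusted p = 3.33e-06), with siRNA arrays that overlapped preadipocytes.

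All 3 genes of the electron acceptors that serve the dehydrogenases rose and fell. Etfa and Etfb, the subunits of electron transfer flavoprotein, rose by 1.91 ± 0.08 and 2.48 ± 0.08 and fell by 1.19 and 2.19. Etfb read 10.36, 10.24 and 10.17 in preadipocytes, 12.75, 12.74 and 12.71 with control siRNA and 10.53, 10.56 and 10.54 with PPAR gamma siRNA, with siRNA arrays just above preadipocytes (adjusted p = 5.01e-09 for the fall). Etfdh, the membrane enzyme that hands these electrons to ubiquinone, read 9.32, 9.36 and 9.61, then 12.11, 12.11 and 12.16, then 10.26, 10.27 and 10.26, so it rose by 2.69 ± 0.09 and fell by 1.86 (adjusted p = 4.23e-08). The thioesterases, which free fatty acids from CoA, had median changes of 0.84 on differentiation and -0.72 with the siRNA, against 2.31 and -1.47 for the dehydrogenases, a difference that was not tested. Acot2 averaged 9.10 ± 0.08 in preadipocytes, 10.06 ± 0.09 with control siRNA and 9.30 ± 0.17 with PPAR gamma siRNA (SD, n = 3). This matrix enzyme rose by 0.96 ± 0.10 and fell by 0.76 (adjusted p = 0.000127). Acot13 averaged 9.37 ± 0.11 in preadipocytes, 10.08 ± 0.03 with control siRNA and 9.40 ± 0.10 with PPAR gamma siRNA (SD, n = 3). It rose by 0.72 ± 0.09 and fell by 0.68 (adjusted p = 0.000104).

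The 3 ketone enzymes took 3 different courses. Acat1, the mitochondrial acetoacetyl-CoA thiolase, read 11.04, 11.18 and 11.10 in preadipocytes, 11.98, 12.08 and 12.14 with control siRNA and 11.35, 11.20 and 11.28 with PPAR gamma siRNA. It rose by 0.96 ± 0.09 and fell by 0.78 (adjusted p = 2.35e-05). Oxct1, the CoA transferase that lets cells outside the liver use ketone bodies, read 12.47, 12.52 and 12.38, then 11.99, 12.05 and 12.04, then 12.36, 12.88 and 12.75. Control siRNA arrays were below all others, and siRNA replicate 1 was the lowest of its group. Oxct1 was lower on differentiation (-0.43 ± 0.12, adjusted p = 0.0128) and 1.56-fold higher with PPAR gamma siRNA than control siRNA (0.64 ± 0.12, adjusted p = 0.00166). Its other 3 probe sets gave -0.61, -0.56 and -0.35 on differentiation and 0.80, 0.63 and 0.48 with the siRNA, all called. The differentiation call on the shown probe set was lost without preadipocyte replicate 2 (-0.40, adjusted p = 0.0502) and with the Actb difference as a covariate (-0.49, adjusted p = 0.104), at changes near the one reported. Bdh1, the mitochondrial beta-hydroxybutyrate dehydrogenase, lay between 3.07 and 3.35 on all 9 arrays, below each array's median of 4.82 to 4.89, and no change passed the test (adjusted p = 0.354, 0.577 and 0.871 in the 3 comparisons).

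**Figure D3:**
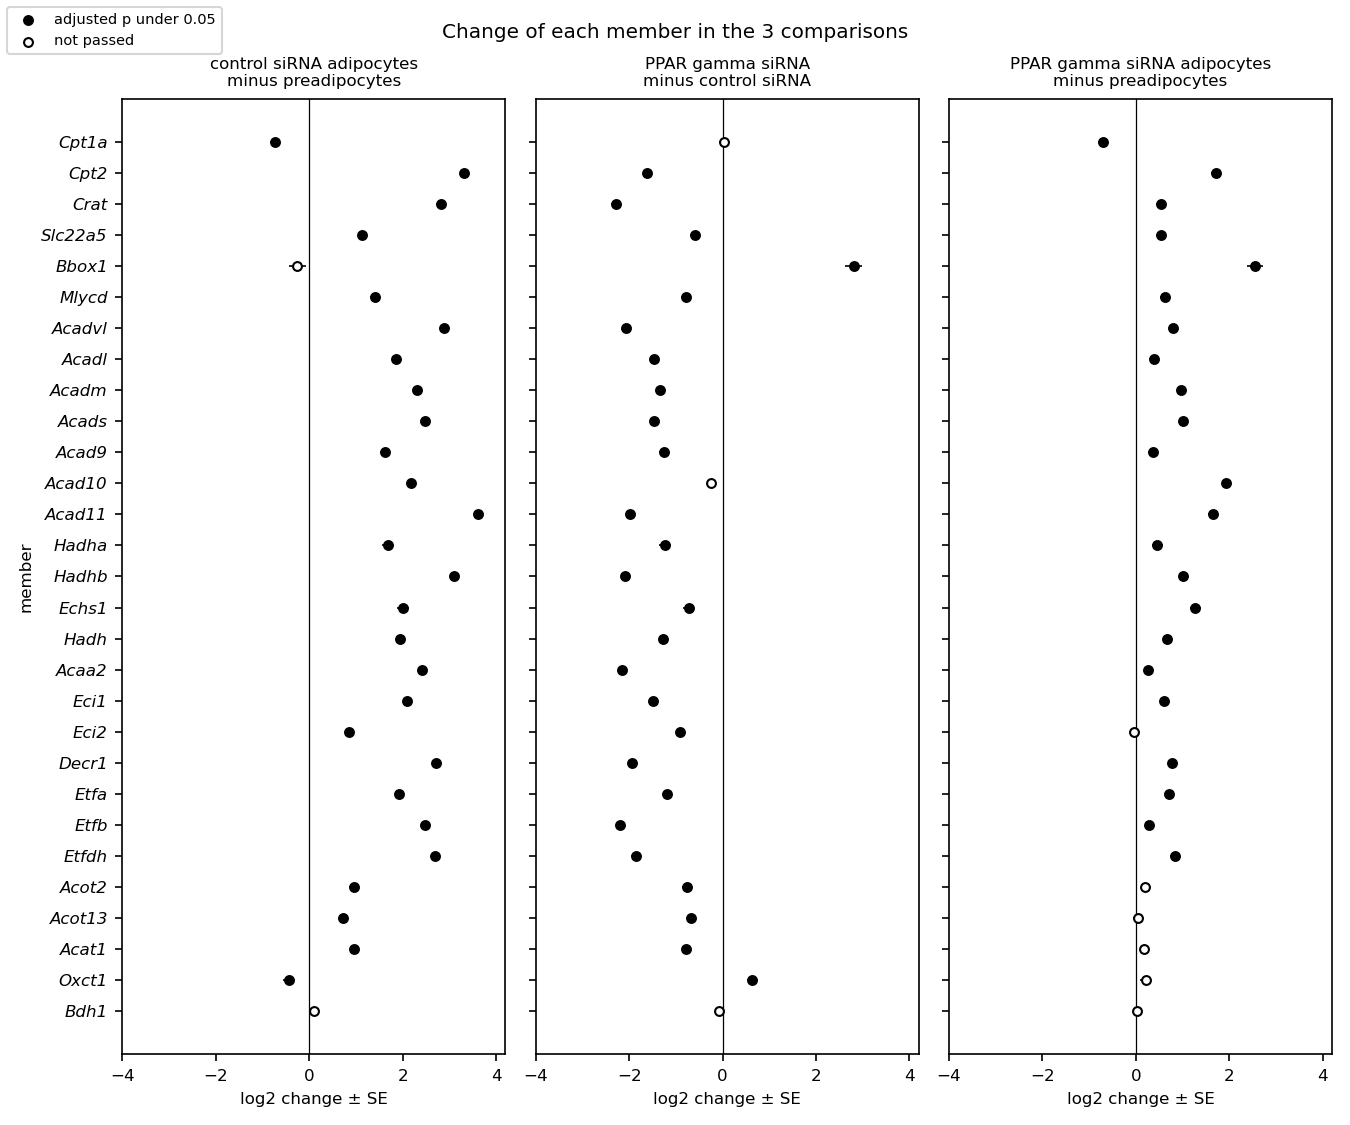
Log2 change ± SE of the 29 members in the 3 comparisons, with filled points for an adjusted p under 0.05 and open points for those that did not pass; many SE bars are shorter than the point. The middle panel has 24 filled points on the left and 2 on the right, Bbox1 at 2.81 and Oxct1 at 0.64.

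Members of the pathway spread from -0.71 to 2.55 in PPAR gamma siRNA adipocytes against preadipocytes, in log2 change. Against preadipocytes, Bbox1 (2.55 ± 0.18), Acad10 (1.94 ± 0.09), Cpt2 (1.71 ± 0.10), Acad11 (1.64 ± 0.09) and Echs1 (1.28 ± 0.12) were highest by the probe sets shown, each at an adjusted p of at most 9.15e-06. Of these, Bbox1 had not risen on differentiation. With all probe sets of a gene averaged, Bbox1 was at 1.69, Acad10 at 1.10 and Cpt2 at 1.11. The second probe sets of Bbox1 and Cpt2 had means of 4.29 and 4.44 over all arrays, below the array medians, which limits these averages. Hadhb and Acads stood 2.01-fold and 2.00-fold above preadipocytes, and Acadm 1.94-fold. The other 2 probe sets of Hadhb did not pass against preadipocytes (0.37, adjusted p = 0.0688, and 0.26, adjusted p = 0.17), and the average of all 3 was 0.55. The value of 0.26 is from the probe set with group means below the array medians. At the other end, Eci2 differed from preadipocytes by -0.04 ± 0.08 (adjusted p = 0.733), Acot13 by 0.04 ± 0.09 (adjusted p = 0.806), Acat1 by 0.17 ± 0.09 (adjusted p = 0.164) and Acot2 by 0.20 ± 0.10 (adjusted p = 0.168). Cpt1a alone was called lower (-0.71 ± 0.11, adjusted p = 0.000298). Several calls at the low end missed the threshold with 1 array fewer, at values near those of all arrays. Acaa2 (0.27 ± 0.08, adjusted p = 0.0244), Etfb (0.28 ± 0.08, adjusted p = 0.0186), Acad9 (0.36 ± 0.11, adjusted p = 0.0236) and Hadha (0.46 ± 0.12, adjusted p = 0.0148) each lost the call without preadipocyte replicate 2 (adjusted p = 0.0949, 0.0652, 0.0758 and 0.0516) and without preadipocyte replicate 3 (adjusted p = 0.0656, 0.0753, 0.0992 and 0.0616). Without PPAR gamma siRNA replicate 2, Acaa2, Etfb and Hadha lost it (adjusted p = 0.0504, 0.0509 and 0.0632), without replicate 3, Acaa2 and Acad9 (adjusted p = 0.0539 and 0.0825), and without replicate 1, Acaa2 (adjusted p = 0.0594). Oxct1 and Acot2 gained a call, without PPAR gamma siRNA replicate 1 (0.36, adjusted p = 0.0149) and replicate 2 (0.30, adjusted p = 0.0484) respectively. Where the call was lost without 1 array, the change was 0.24 to 0.27 for Acaa2, 0.24 to 0.28 for Etfb, 0.27 to 0.35 for Acad9 and 0.37 to 0.45 for Hadha.

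Where a member had further probe sets, 27 in all for 18 genes, they made the same call as the one shown in 23 cases on differentiation, in 22 with the siRNA against control siRNA and in 13 for the siRNA against preadipocytes. None had the opposite call in the first 2 comparisons. In the last, Decr1 was 0.78 ± 0.08 above preadipocytes by the probe set shown and below them by a dimmer one (-0.41, adjusted p = 0.0186), so its position against preadipocytes depends on the probe set. A dimmer Acot2 probe set was also below preadipocytes (-0.72, adjusted p = 0.0212) and made no call elsewhere, while a dimmer one of Acat1 was above them (0.71, adjusted p = 4.73e-05). Slc22a5 was above preadipocytes by the probe set shown but not by its other one (0.04, adjusted p = 0.855). Crat and Acad9 each had 1 further probe set without that call (0.21, adjusted p = 0.174, and -0.14, adjusted p = 0.309) and 1 with it. Averaging all probe sets of a gene gave smaller differentiation changes of 1.03 for Acadl, 1.15 for Acad10, 1.38 for Etfdh and 0.37 for Acot2. With the siRNA it gave smaller changes of -0.78 for Acadl and -0.97 for Etfdh. Against preadipocytes it gave 0.29 for Slc22a5, 0.25 for Acadl and 0.41 for Etfdh, all still called, and 0.19 for Decr1, which was not (adjusted p = 0.0972). The further probe sets of Acadl and Etfdh averaged 3.45 and 3.07 over all arrays, with group means below the array medians. The averages for Acadl and Etfdh therefore say little about the size of their changes.

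Genes next to the members in the pathway were counted in the same way. Of all genes, 27.1% were called higher and 24.7% lower on differentiation, and 19.9% and 16.1% with PPAR gamma siRNA against control siRNA. Against preadipocytes, 19.6% were higher and 16.9% lower with PPAR gamma siRNA. Beside these shares, 1 or 2 calls in a list of 5 or 7 genes say little. Of 22 measured other mitochondrial oxidation and carnitine genes, 17 rose on differentiation and 2 fell, and 17 fell and 2 rose with PPAR gamma siRNA, with medians of 1.65 and -0.57. Against preadipocytes 16 were higher and 4 lower. Slc25a20, the inner-membrane carrier of acyl-carnitine that links Cpt1 with Cpt2, rose by 1.93 ± 0.10 and then fell by 2.26, ending below preadipocytes (-0.33 ± 0.10, adjusted p = 0.0245). It read 8.98, 9.0 and 8.97, then 10.90, 10.87 and 10.98, then 8.77, 8.45 and 8.75, so that the siRNA arrays were the lowest of all. Cpt1c, a relative of Cpt1a known mainly from brain and located in the endoplasmic reticulum, went the other way, at 8.69, 8.95 and 9.01 in preadipocytes, 4.83, 4.69 and 4.66 with control siRNA and 7.53 on each PPAR gamma siRNA array. It fell on differentiation and rose with the siRNA (adjusted p = 3.29e-11 and 3.7e-09). Its control siRNA values lay below each array's median, so the sizes of these changes are not given. The PPAR gamma siRNA values of Cpt1c were identical, so their SD of 0 is no measure of the spread between arrays. Acot1, a cytosolic thioesterase near-identical to Acot2, fell by 1.27 on differentiation (adjusted p = 5.3e-05), and near-identical copies can share signal. Its value of 4.83 in control siRNA replicate 1 lay below that array's median of 4.86, so the size of its fall is uncertain.

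Of 22 regulators, 14 rose on differentiation and 0 fell, and with PPAR gamma siRNA 14 fell and 1 rose, Rxra (0.58 ± 0.15), with medians of 1.40 and -0.55. Against preadipocytes 13 were higher and 3 lower. Ppargc1b, a coactivator of mitochondrial genes, read 5.65, 5.84 and 5.64, then 10.32, 10.40 and 10.35, then 7.38, 7.45 and 7.46, so it rose by 4.65 ± 0.08 and fell by 2.93 (adjusted p = 1.12e-09). Esrra, the orphan receptor that acts with it on oxidation genes, rose by 2.19 ± 0.09 and fell by 1.81 (adjusted p = 3.15e-08). Lpin1 and Nrip1, a coactivator and a corepressor of such genes, rose by 4.71 ± 0.09 and 3.63 ± 0.10. Pdk4, which spares pyruvate when fat is burnt, fell by 2.53 with the siRNA and ended below preadipocytes (-0.98 ± 0.14, adjusted p = 0.000169). Acaca and Acacb make the malonyl-CoA that Mlycd removes, and they rose by 2.58 ± 0.12 and 2.44 ± 0.08.

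In flavin supply and ETF partners, 3 of 5 rose and 1 fell on differentiation, and 2 fell and 0 rose with the siRNA (medians 0.32 and -0.39). The one that fell was Rfk, the riboflavin kinase (-0.41 ± 0.14, adjusted p = 0.0348), which was also below preadipocytes with the siRNA (-0.80 ± 0.14, adjusted p = 0.000959). Flad1, which makes the FAD that the dehydrogenases carry, rose by 2.04 ± 0.09 and fell by 1.70 (adjusted p = 4.99e-08), and Etfrf1, a small protein that binds ETF, rose by 1.73 ± 0.09 and fell by 0.71. Of 7 other ketone genes, 3 rose and 1 fell on differentiation, and 1 rose and 1 fell with the siRNA (medians 0.23 and 0.01). Bdh2, a cytosolic relative in name of Bdh1, read 8.56, 8.58 and 8.38, then 5.62, 6.03 and 5.56, then 8.38, 8.24 and 8.40. It fell by 2.77 and rose back by 2.61 ± 0.12 (adjusted p = 3.27e-08), with preadipocyte and siRNA arrays that overlapped. Slc16a1, a monocarboxylate and ketone body transporter, rose by 0.81 ± 0.14 and fell by 1.11.

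**Figure D4:**
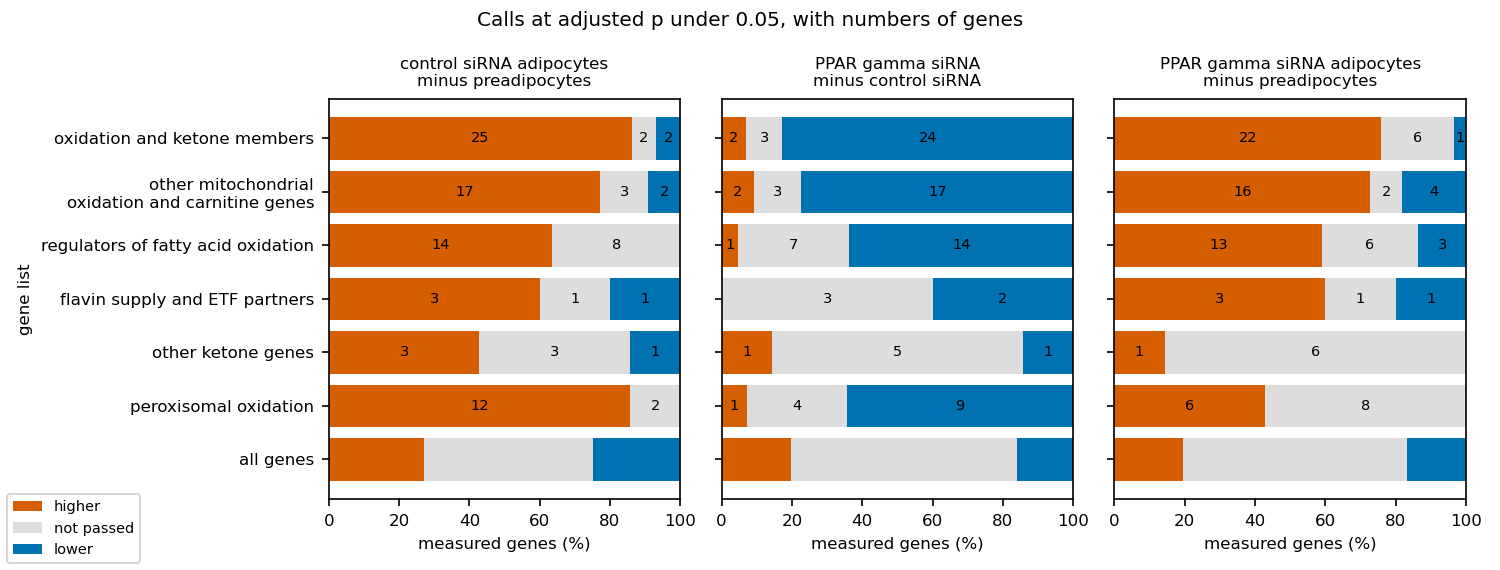
Share of the measured genes of each list called higher (orange), lower (blue) or not passed (grey) in the 3 comparisons, with gene numbers in the bars and all 18193 genes in the bottom bar. The oxidation and ketone members have 25 of 29 genes in orange on the left and 24 of 29 in blue in the middle panel, against 27.1% and 16.1% of all genes.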

How the data were processed

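RNA of 9 samples was hybridised to single-colour Affymetrix arrays. The deposited values are probe set signals, taken as log2 because they span 2.41 to 14.59 (no label names the scale), with array medians of 4.82 to 4.89. Per the submitters' processing notes, MAS5, RMA and affy 1.16.0 were used, without role or order. Groups came from the sample titles.

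Values were used as deposited. The 64 control probe sets were left out and 45037 tested. Gene symbols came from the platform annotation: 34945 tested probe sets had 1 symbol, 932 several and 9160 were not listed. The 3 comparisons came from a single limma 3.58.1 model (R 4.3.3; lmFit, eBayes) over all 9 arrays, two-sided, with Benjamini-Hochberg adjustment. The fit was tested on simulated data. Arrays of a group correlated at 0.994 to 0.998, and the number of arrays limits the precision. Some deposited values were identical on several arrays, such as 8.92 for Cpt1a on control siRNA replicate 3 and PPAR gamma siRNA replicates 2 and 3. Such ties can make the spread look smaller, and their cause was not tested. The members and gene lists were chosen with earlier results of these data known. All 30 members were to be accounted for, with up to 3 rises and 3 falls named from each other list per comparison; Esrra, Acaca, Acacb and Crot were named after their values were seen. Of the other lists, genes without a single-symbol probe set were not analysed here. Alternatives were 10 settings (among them another quantile normalisation, median centring, a filter on dim probe sets, all probe sets averaged, a replicate block and the Actb covariate) and the omission of each array.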

Additional observations from a re-analysis of the deposited data

How the results depend on the processing

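Over 19 alternative settings (10 changes of method and the omission of each of the 9 arrays), 1606 of 1650 values of single members kept their direction and their side of the threshold, 26 lost a call and 7 gained one. The other 11 changed sign, in 4 differences that were not called as reported or under the settings that turned them. Cpt1a with PPAR gamma siRNA against control siRNA was -0.0043 with all probe sets averaged, -0.049 when both arrays with the greatest Actb difference were dropped, and -0.024 to 0.13 without single arrays. Against preadipocytes, Acot2 was -0.26 with all probe sets averaged. Acot13 was -0.0019 with the Actb covariate and -0.014 to 0.097 without single arrays, and Bdh1 was -0.039 when quantile-normalised again and -0.039 to 0.069 without single arrays. The cause was not tested. The counts of members up on differentiation (25), up with the siRNA (2) and lower than preadipocytes with the siRNA (1) were the same in all 19, and the count lower with PPAR gamma siRNA was 24 or 25. The count lower on differentiation was 2 as reported, 1 with the Actb difference as a covariate, and 1 to 3 when single arrays were left out. The count above preadipocytes with PPAR gamma siRNA was 22 as reported, 16 with the Actb covariate, 21 without the 2 arrays of highest Actb difference (1 of each siRNA group), and 18 to 22 when single arrays were left out. With replicate number as a block the counts stayed at 25 up and 2 down on differentiation, 2 up and 24 down with the siRNA, and 22 up and 1 down against preadipocytes. Deviations from the group means correlated between -0.19 and 0.17 for same-numbered arrays and between -0.22 and 0.29 for differently numbered ones. With 3 arrays per group, whose deviations depend on one another, this cannot decide whether the numbers pair the arrays. No scaling moved the median of all genes by over 0.1.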

Other observations

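Oxidation also takes place in peroxisomes, where very long and branched chains are shortened before they reach mitochondria, and 14 genes of that pathway were measured. On differentiation 12 rose and 0 fell, and with PPAR gamma siRNA 9 fell and 1 rose. Of all genes, 27.1% rose and 24.7% fell on differentiation, and 16.1% fell and 19.9% rose with the siRNA. Abcd2, a transporter that brings very long acyl-CoA into the peroxisome, read 5.14, 5.51 and 5.47 in preadipocytes, 10.47, 10.59 and 10.93 in control siRNA adipocytes and 7.30, 7.52 and 7.06 in PPAR gamma siRNA adipocytes, so it rose by 5.29 ± 0.15 and fell by 3.37 (limma adjusted p = 1.36e-10 and 2.2e-08). Acaa1b, a peroxisomal thiolase, rose and fell as well (adjusted p = 7.1e-11 and 1.55e-09), but lay below each array's median in preadipocytes and with PPAR gamma siRNA, so the sizes are not given. Scp2 rose by 3.02 ± 0.09 and fell by 0.66. Crot, the peroxisomal carnitine transferase and a relative of Crat, differed by -0.07 ± 0.09 on differentiation and by -0.07 ± 0.09 with the siRNA (adjusted p = 0.574 and 0.627), whereas Crat rose and fell. That difference between the relatives was not tested. Decr2, the peroxisomal counterpart of Decr1, rose by 0.59 ± 0.17 with PPAR gamma siRNA (adjusted p = 0.0193). Against preadipocytes, 6 of the 14 genes were still higher in PPAR gamma siRNA adipocytes (19.6% of all genes) and 0 lower (16.9%).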
